A study of Gallus gallus with 2 samples.

Results

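The genes described here make, move, bind, sense and break down retinoic acid. They were chosen by symbol as 10 genes, and every probe set annotated with a member's symbol or alias was taken from the 38382 probe sets analysed, which represent 13009 genes with a single symbol. That gave 19 probe sets. The probe set annotated RBP4 carries the gene ID 396454, which belongs in the RefSeq gene table to a gene other than RBP4A (gene ID 396166). Its values are given separately, so that 18 probe sets stand for the 10 members. Each gene is represented by its probe set of highest mean log2 value.

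Retinol reaches tissues on the plasma carrier retinol binding protein, is oxidised to retinaldehyde by retinol dehydrogenases such as RDH10, and is then turned into retinoic acid by the retinaldehyde dehydrogenases of the ALDH1A family. DHRS3 runs the first step backwards, CYP26 enzymes degrade retinoic acid, and CRABP proteins hold it in the cytoplasm. In the nucleus it binds retinoic acid receptors, which pair with retinoid X receptors on DNA. In the gastrulating chick embryo this pathway is known for its part in setting the anterior and posterior extent of the heart field and of the hindbrain.

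The data are expression indices from 2 GeneChip Chicken Genome arrays, 1 for each tissue of chick (Gallus gallus) embryos of stage HH4-4+, although another label of the same samples reads HH4-5. Both arrays come from embryos that were electroporated at HH3 with pCer2.5-EGFP, a plasmid whose green fluorescent protein is under control of 2.5 kb of Cerberus upstream sequence, and the labels give about 12 h of incubation at 37.5 °C. By its label, the HFR array holds heart forming regions, cut out where they fluoresced. The PPP array is labelled as the posterior part of the primitive streak, where cells leave the epiblast. Fluorescence marks a piece in which some cells took up the plasmid and expressed its reporter, so other cells of that piece were included. The labels used here do not say how many embryos went into a sample. In such pieces, fewer cells of a type and less RNA per cell cannot be told apart. The comparison asks how far the pathway's genes differ between the pieces labelled heart forming regions and posterior streak. Most of the marker checks below go against those labels in the values as deposited.

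Values are model-based expression indices (MBEI) on a linear scale, each with a call of present, marginal or absent. The standard error printed after ± comes from the probes of that array. With 1 array per tissue no difference has a replicate check and no p-value is given. It holds no variation between embryos. Across the arrays 38.4% (HFR) and 42.2% (PPP) of probe sets were called present. In the values as deposited, most of the label checks went against the labels. CER1, the Cerberus gene itself, had 108.3 ± 19.2 MBEI (marginal) in HFR and 420.2 ± 193.3 in PPP. Its present call was in PPP alone, with a large error there. The streak gene TBXT had 7128.6 ± 80.7 in HFR and 3691.4 ± 147.1 in PPP, a 1.93-fold difference and so under 2-fold. Among 15 heart forming region markers, 3 had a present call in HFR and 9 in PPP. The 8 of them that passed the level filter described below were all lower in HFR, 3 (MYOCD, ISL1, HAND2) by 2-fold or more. Those 3, NKX2-5 and SMYD1 had no present call in HFR, so they passed through PPP alone and their direction was fixed. Over all 15 the median log2 difference was -0.22. TBX5, absent on both arrays, lay furthest the other way (232.9 ± 17.8 in HFR and 158.8 ± 9.7 in PPP). Among 14 passing streak markers, 10 were higher in HFR and 4 in PPP. By 2-fold or more, 4 were higher in HFR and 1 in PPP. Of those at 2-fold, FGF3 and SP8 were called absent in PPP and FGF8 in HFR, so each passed through its brighter array alone. CDX4, present on both arrays, was among the streak markers higher in PPP (1861.4 ± 69.2 in HFR and 3528.2 ± 36.6 in PPP). For this reason the text writes HFR-labelled and PPP-labelled array, and each direction is one between arrays so labelled. Poly-A control RNAs added to the samples read lower on the HFR-labelled array, by a median log2 difference of -1.44 over 33 probe sets. Single probe sets of these controls ranged from -2.11 to -0.87, and the scaling that sets the controls equal uses the median. That scaling raises every log2 difference by 1.44, so the label checks depend on it. Among the passing heart markers only MYOCD (-1.88) would then stay lower in HFR, and the median over all 15 would turn. CER1 (-1.96) and TBXT would keep their sides.

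To pass the level filter, a gene needed a present call and at least 70.8 MBEI on the array where it was brighter. That cutoff is the median of the brighter value over probe sets. Differences were counted from 2-fold upward. Of 7389 passing genes, 3.86% reached 2-fold toward the HFR-labelled array and 4.25% toward the PPP-labelled array, 8.11% in all. That is 285 and 314 genes. With the poly-A controls set equal, 7064 genes passed. That scaling moves the median log2 difference of passing genes from -0.05 to 1.42, and the same counts were 5876 and 15. Of the 10 retinoic acid genes, 8 passed, and among these 3 (RBP4A, ALDH1A1 and RDH10) reached 2-fold toward the HFR-labelled array and 0 toward the other. Because a gene could pass on its brighter array alone, and the members were chosen with earlier results known, those counts are a description and support nothing. The median log2 difference was 0.65 over the 8 members that passed and 0.20 over all 10, beside -0.05 over all passing genes and 0.05 over all 13009 genes.

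**Figure D1:**
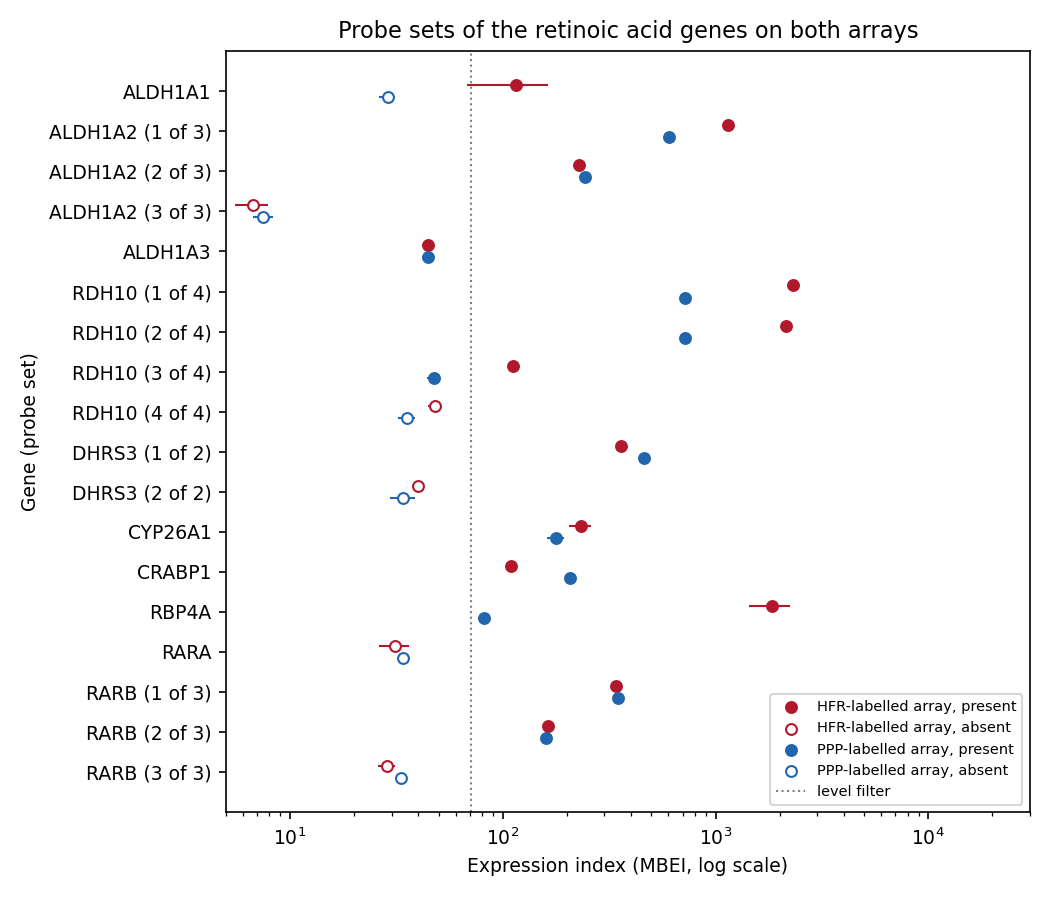
Expression index (MBEI, log scale) of each of the 18 probe sets on the HFR-labelled (red) and PPP-labelled (blue) array, 1 array each. Bars are model standard errors within an array, filled points were called present, open points absent, and the dotted line is the level filter at 70.8 MBEI. Where a gene has several probe sets they are numbered by brightness. RBP4A and the first 3 probe sets of RDH10 show the red point far to the right of the blue.

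Retinol transport gave the widest difference. RBP4A, the plasma carrier that delivers retinol to cells, read 1835.5 ± 405.9 MBEI on the HFR-labelled array against 81.3 ± 5.2 on the PPP-labelled array, and was called present on both. That is a 22.6-fold difference, a log2 difference of 4.50 with a model standard error of 0.33, ranked 3 from the top among the 7389 genes. The error on the bright array was 22.1% of the value, against a median of 4.71% over present probe sets there, and only this probe set stands for the gene. The probe set annotated RBP4, of the other gene ID, was called absent on both arrays at 44.3 ± 2.4 and 37.7 ± 1.4 MBEI, so the difference was seen at the RBP4A probe set alone.

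Among genes of extraembryonic endoderm and of the yolk sac, which make plasma carriers, those past the level filter lay the same way as RBP4A. Of 23 such markers on the array 9 passed the level filter. Of these 8 reached 2-fold toward the HFR-labelled array and 0 toward the other, with a median log2 difference of 3.15 over the 9 and 0.40 over all 23. Among the 8, UPK1B, SPP1, SLC5A1, HNF4A and FGG had no present call on the PPP-labelled array. Their direction was fixed by the filter, which limits the count and the median over the 9. The list was written with earlier results of these arrays known, so its direction is not independent evidence. The largest were UPK1B (549.8 ± 20.8 and 30.1 ± 14 MBEI), the apolipoprotein APOA1 (4249.7 ± 0.5 and 267.9 ± 8.4), osteopontin SPP1 (433.6 ± 8.0 and 28.8 ± 8.8) and the glucose transporter SLC5A1 (628.7 ± 3.6 and 61.0 ± 3.5), of which all but APOA1 were called absent on the PPP-labelled array and so passed through the HFR-labelled array alone. Summed over the 23 markers, the level was 10212.9 MBEI on the HFR-labelled and 2768.2 on the PPP-labelled array. Another 11 of the 23, named here because they were called absent on both arrays, were AFP, AHSG, AMN, APOA4, APOB, APOH, APOV1, CUBN, FABP1, FABP2 and VIL1, and 0 were listed at 0. ALB, which did not pass, lay the other way, at 39.9 ± 2.7 (marginal) on the HFR-labelled and 50.7 ± 2.9 (present) on the PPP-labelled array. APOA5 and FGA were also present on 1 array and under the level filter, both higher on the HFR-labelled array. The part of extraembryonic cells in the RBP4A difference was not tested. Of the 10 retinoid genes, only RBP4A is itself a plasma carrier. Among the 7 tissue marker lists, that of extraembryonic endoderm had the highest median over passing markers. Others also leaned to the HFR-labelled array. Because a marker could pass on its brighter array alone, the median over all markers on the array follows each passing median. The medians were 0.49 and 0.21 for neural plate and ectoderm, 0.33 and 0.30 for streak and 0.06 and 0.10 for notochord and node markers. They were -0.75 and -0.22 for heart forming region, -0.88 and -0.81 for anterior endoderm and -2.11 and -0.68 for blood and endothelial markers. The extraembryonic list, at 0.40 over all 23, lay much closer to the streak list on that measure.

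Of the enzymes that interconvert retinol and retinaldehyde, RDH10 was past 2-fold and DHRS3 was not. RDH10, the dehydrogenase that makes retinaldehyde in the embryo, read 2322.6 ± 16.7 MBEI there and 720.7 ± 22.8 on the PPP-labelled array. The fold was 3.22, and the log2 difference 1.69 with a model standard error of 0.05. Its second probe set, with the suffix x that marks probes shared with other transcripts, read 2148.3 ± 17.0 and 719.5 ± 33.3 (2.99-fold) and was designed from the same transcript record as the first, so these are not separate evidence. The third, from a different transcript record, read 111.5 ± 4.9 and 47.4 ± 3.4 (2.35-fold). The fourth was called absent on both arrays, at 48.1 ± 3.5 and 35.4 ± 3.3 MBEI. All 3 passing probe sets of RDH10 therefore lay on the same side at 2-fold or more, over a range of 0.45 in log2 difference. DHRS3, which reduces retinaldehyde back to retinol, lay the other way and under 2-fold, at 358.5 ± 11.9 on the HFR-labelled and 459.3 ± 18.0 on the PPP-labelled array. The log2 difference of -0.36 (standard error 0.07) came to -0.31 relative to the median of all passing genes. With the poly-A controls set equal it turned to 1.09. The other DHRS3 probe set was absent on both arrays (40.1 ± 2.6 and 34.1 ± 4.5).

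The retinaldehyde dehydrogenases, which make retinoic acid itself, differed among themselves. ALDH1A1 read 115.7 ± 47.8 MBEI on the HFR-labelled array, called present, and 28.8 ± 2.5 on the PPP-labelled array, called absent. At these values ALDH1A1 was 4.02-fold higher in the HFR-labelled sample, with a log2 difference of 2.01 and a standard error of 0.61. That fold is a lower bound as regards the absent reading only, and leaves out the error of the bright one. The error on the bright array was 41.3% of the value, so that ALDH1A1 has no value where probe sets of relative error over 30% are left out, and with 35.4 MBEI added to every value its log2 difference was 1.23.

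ALDH1A2, the main source of retinoic acid in early mesoderm, depended on the probe set. The brightest read 1141.7 ± 18.5 MBEI on the HFR-labelled and 605.9 ± 30.1 on the PPP-labelled array, a 1.88-fold difference (log2 0.91, standard error 0.08) that missed the 2-fold threshold. The second passing probe set read 228.8 ± 7.9 and 242.4 ± 8.2, a log2 difference of -0.08 with a standard error of 0.07. Those differences lie 1.00 apart in log2. Among the 2438 genes with several passing probe sets, 91.1% had a narrower gap between their highest and lowest, and the median gap was 0.37. The median of both was 0.42. The remaining probe set was absent on both arrays at 6.7 ± 1.2 and 7.5 ± 0.8 MBEI. ALDH1A3, which makes retinoic acid mainly in the eye and surface ectoderm later on, was called present on both arrays at 44.6 ± 2.9 and 44.5 ± 2.7 MBEI. It was under the level filter, and its readings lay within their errors of each other.

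Breakdown and binding stayed under 2-fold in the values as deposited. CYP26A1, the main retinoic acid hydroxylase of the gastrula, read 232.9 ± 28 MBEI on the HFR-labelled and 178.0 ± 15.9 on the PPP-labelled array, 1.31-fold. Its log2 difference of 0.39 was under 2 of its standard errors (0.22). With the poly-A controls set equal, the CYP26A1 difference was 1.83. CRABP1, the cytoplasmic retinoic acid binding protein, was the member with the largest difference toward the PPP-labelled array, at 109.7 ± 5.3 and 206.4 ± 8.0 MBEI, called present on both. The difference was 1.88-fold (log2 -0.91, standard error 0.09, and -0.86 relative to the median of all passing genes). CRABP1 ranked 396 of the 7389 genes from the PPP-labelled side. With the poly-A controls set equal its log2 difference turned to 0.53. CRABP1 has a single probe set.

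Of the receptors, RARB differed by less than its error in the values as deposited, and RARA was not detected. RARB, a receptor that is also a known direct target of retinoic acid, read 340.3 ± 10.6 MBEI on the HFR-labelled and 349.7 ± 6.3 on the PPP-labelled array with its brightest probe set, and 163.5 ± 9.1 and 159.9 ± 4.9 with its second. The log2 differences were -0.04 and 0.03, each smaller than its standard error (0.05 and 0.09). The gap between them was 0.07, and 10.8% of genes with several passing probe sets had a narrower one. With the poly-A controls set equal, the brightest RARB probe set had 1.40. The third RARB probe set was absent on both arrays (28.5 ± 2.7 and 33.3 ± 1.4). RARA, the more broadly expressed receptor, had a single probe set, absent on both arrays at 31.2 ± 4.9 and 33.9 ± 1.5 MBEI, so that its messenger was not detectable with these probes and no fold is given.

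**Figure D2:**
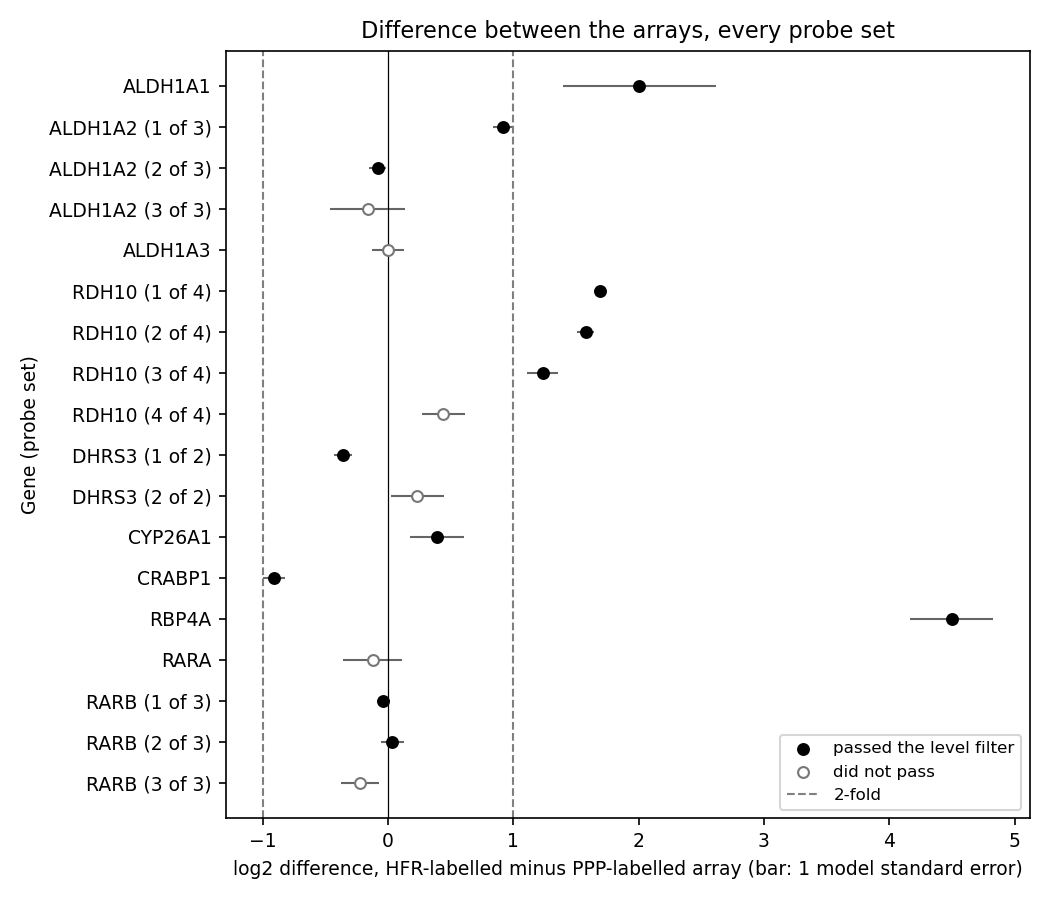
log2 difference (HFR-labelled minus PPP-labelled array) of each of the 18 probe sets, with 1 model standard error as the bar. Black points passed the level filter, open points did not, and dashed lines mark 2-fold. RBP4A lies at 4.50, the passing RDH10 probe sets between 1.23 and 1.69, the passing ALDH1A2 probe sets at 0.91 and -0.08, and CRABP1 at -0.91.

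Set in order of log2 difference among the members that passed, RBP4A (4.50) came first, then ALDH1A1 (2.01), RDH10 (1.69), ALDH1A2 (0.91), CYP26A1 (0.39), RARB (-0.04), DHRS3 (-0.36) and CRABP1 (-0.91). ALDH1A1 and RDH10 are neighbours in that order whose difference, 0.32, is smaller than the error of ALDH1A1 alone. The carrier and the enzymes RDH10 and ALDH1A1 were thus past 2-fold. The reductase and the cytoplasmic binding protein lay on the other side of 0, under 2-fold. Both turn with the poly-A controls set equal at their median. At the smallest control difference (-0.87) DHRS3 would turn too, while CRABP1 (-0.91, standard error 0.09) would lie within its error of 0. Of all passing genes, 99.0% lay below ALDH1A1, 98.6% below RDH10 and 95.6% below ALDH1A2 in log2 difference. ALDH1A1 passed through the HFR-labelled array alone, so its side was fixed by the filter and its place is no support.

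**Figure D3:**
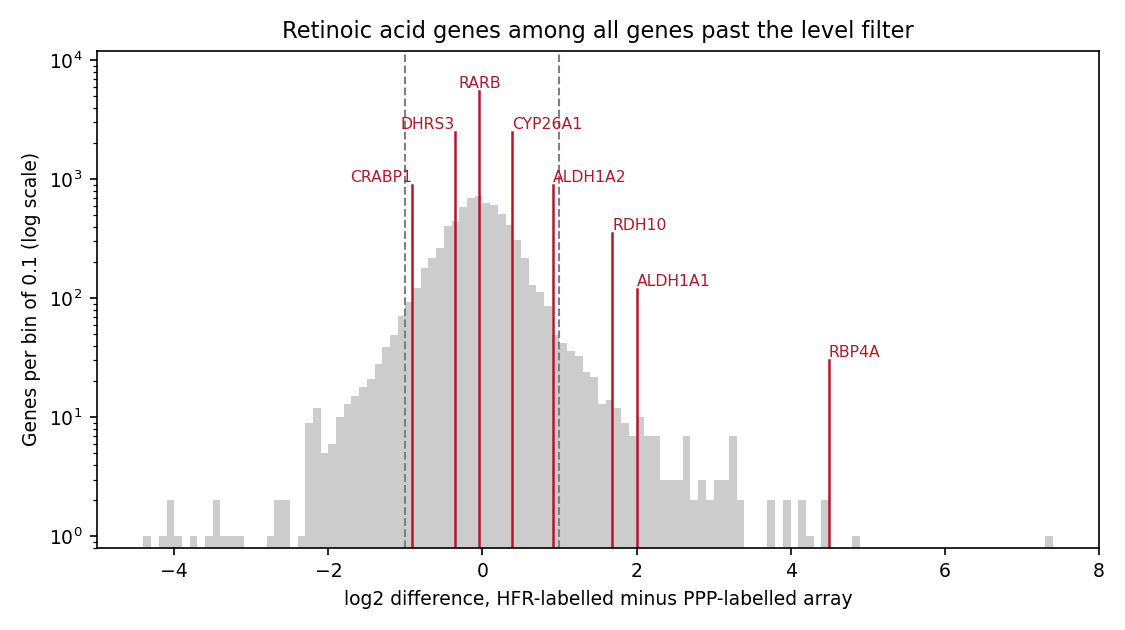
Histogram of the log2 difference (HFR-labelled minus PPP-labelled array) of the 7389 genes past the level filter, in bins of 0.1 with the count on a log scale. Red lines mark the 8 members that passed (their height has no meaning), and dashed lines mark 2-fold. RARB lies at the centre, and RBP4A at 4.50 in the sparse right tail.

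The rest of the pathway was read from 3 lists of other retinoid genes. In the list of other metabolism and transport genes 23 were on the array and 7 passed, with 1 at 2-fold or more on each array and a median log2 difference of 0.11. TTR (transthyretin), which carries thyroid hormone and binds RBP4 in plasma, read 1365.0 ± 511.7 MBEI and 102.0 ± 2.1 (marginal). At these values it was 13.4-fold higher in the HFR-labelled sample, a fold that leaves out the large error of the bright reading. Its other passing probe set read 92.1 ± 2.8 and 63.5 ± 2.5 (absent), a log2 difference of 0.54. RDH14, a retinol dehydrogenase, was 2.15-fold higher in the PPP-labelled sample (59.9 ± 3.7 and 128.9 ± 10.5), a side opposite to RDH10. The retinaldehyde reductase RDH11 had a log2 difference of 0.43 (1537.8 ± 23.8 and 1141.0 ± 21.4), and FABP5, a fatty acid binding protein that can also carry retinoic acid, -0.47 (106.9 ± 4.4 and 148.1 ± 4.7).

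A few partners of the members are added here, chosen after their values were seen. STRA6, the cell surface receptor for retinol binding protein, read 93.7 ± 8.5 (absent) and 63.3 ± 6.9 MBEI (present), and LRAT, which esterifies retinol for storage, was absent on both arrays (20.0 ± 1.5 and 18.8 ± 1.4). CYP26B1, a relative of CYP26A1, was absent on both arrays too. CYP26C1, another member of that family, read 202.5 ± 10.7 (absent) and 147.7 ± 3.1 (present) with its brightest probe set. Its passing probe set, called present on both arrays, read 44.9 ± 4.5 and 80.2 ± 2.2, a log2 difference of -0.84. The brightest CYP26C1 probe set was called absent on the array where it read higher, so it gives no reliable direction to set beside that.

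Among other receptors and cofactors 14 were on the array and 8 passed, with 0 at 2-fold or more on either array and a median log2 difference of 0.18. The largest was ZNF423, a zinc finger cofactor of retinoic acid receptors, at -0.99 (112.8 ± 8.6 and 224.8 ± 10.2), just under 2-fold. The nuclear receptor coactivators NCOA1 (365.5 ± 5.3 and 239.2 ± 10.5) and NCOA2 (166.9 ± 4.7 and 126.6 ± 4.3) had log2 differences of 0.61 and 0.40, but the other passing probe sets of NCOA2 had -0.17 (88.3 ± 8.3 and 99.2 ± 4.3) and -0.03 (80.5 ± 3.0 and 82.2 ± 2.5). The corepressor NRIP1, itself induced by retinoic acid in other cells, had 0.44 (706.1 ± 34.6 and 519.3 ± 24.3) and, with its other passing probe set, 0.35 (552.6 ± 17.4 and 432.6 ± 11.7). The retinoid X receptors RXRA (122.0 ± 4.1 and 110.8 ± 4.6) and RXRG (90.7 ± 3.0 and 64.7 ± 2.5), chosen after their values were seen, were called absent on both arrays.

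Among genes known to respond to retinoic acid 27 were on the array and 10 passed, with 1 at 2-fold or more on each array and a median of 0.03. HOXB1, a hindbrain and posterior mesoderm gene with retinoic acid response elements, was 2.47-fold higher in the HFR-labelled sample (1986.7 ± 5.0 and 803.1 ± 11.6), while its 4 other probe sets did not pass. GBX2, a homeobox gene of the anterior hindbrain, was 4.00-fold higher in the PPP-labelled sample (423.2 ± 23.9 and 1691.7 ± 25.7). The TALE homeobox gene MEIS2 had -0.59 (57.9 ± 11.9 and 87.2 ± 4.5) and the antiproliferative gene BTG2 0.50 (1486.5 ± 14.1 and 1053.4 ± 8.6). With RARB, CYP26A1 and DHRS3, the members known as direct targets, the responding genes lay on both sides of 0.

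**Figure D4:**
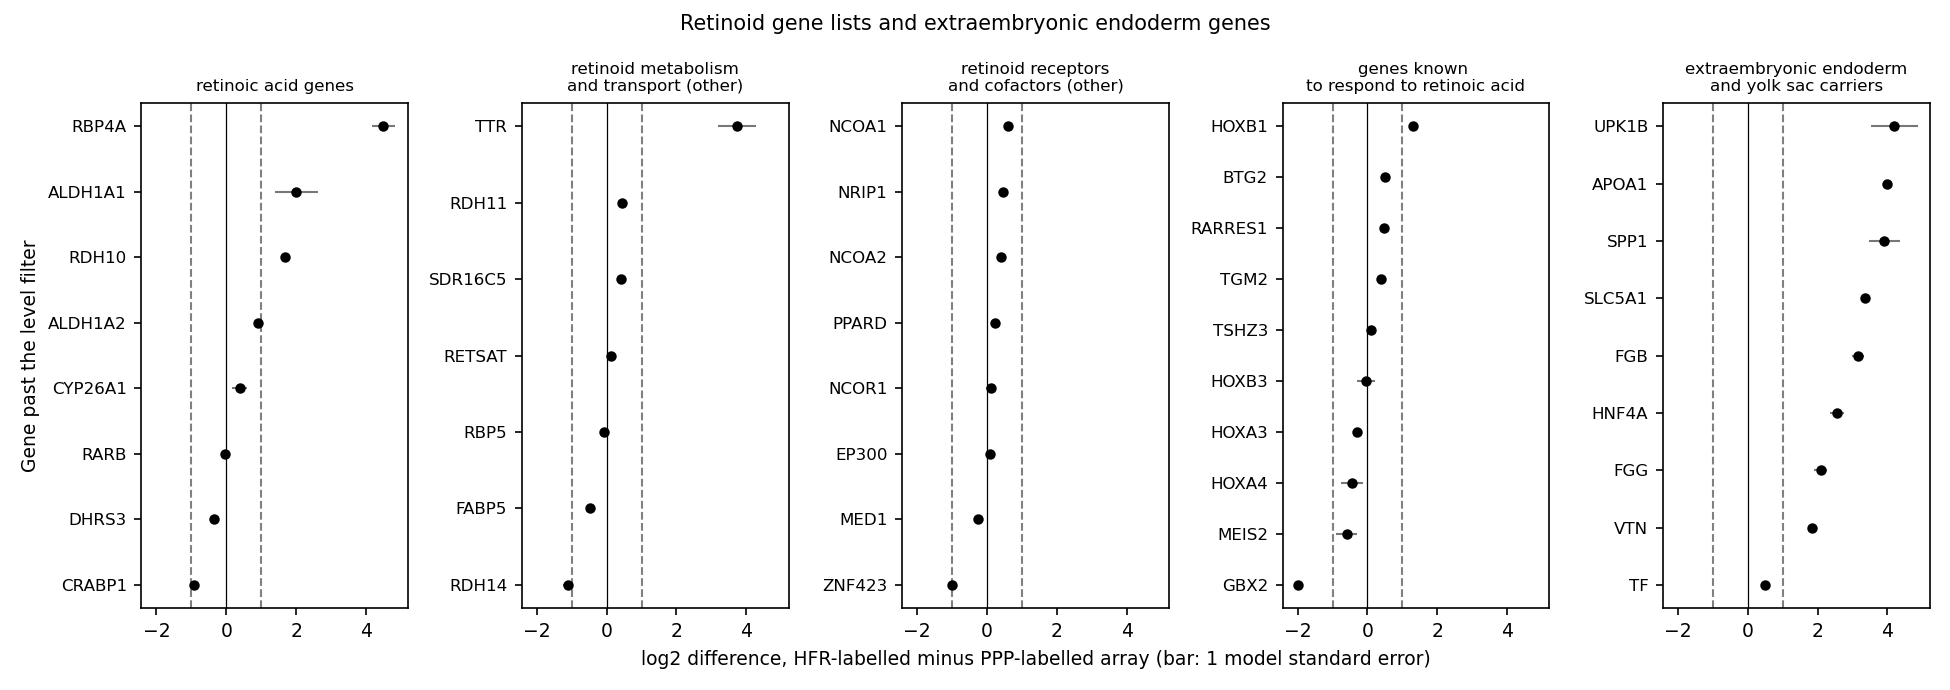
log2 difference (HFR-labelled minus PPP-labelled array) of every gene past the level filter in the retinoic acid set, the 3 lists of other retinoid genes and the list of extraembryonic endoderm and yolk sac genes, with 1 model standard error as the bar and dashed lines at 2-fold. The 3 other retinoid lists cluster near 0 with medians of 0.11, 0.18 and 0.03, while 8 of 9 extraembryonic genes lie past 2-fold on the HFR-labelled side, as do RBP4A, ALDH1A1, RDH10, TTR and HOXB1. Among these, UPK1B, SPP1, SLC5A1, HNF4A, FGG, ALDH1A1 and TTR had no present call on the PPP-labelled array, so their side was fixed by the filter.

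The difference of each member was recomputed under up to 13 other settings of scaling, level filter, pseudocount and choice of probe set. Level filters, the limit on relative error and the equal value table cannot move a member's difference, so sameness under them shows nothing. ALDH1A1 fails the stricter filter and presence on both arrays, and its value there is the unfiltered one. RBP4A lay between 4.00 and 5.94, RDH10 between 1.58 and 3.13 and ALDH1A1 between 1.23 and 3.45, all at 2-fold or more. ALDH1A2 lay between 0.42 and 2.36. CRABP1 lay between -0.97 and 0.53 and DHRS3 between -0.42 and 1.09, both above 0 with the poly-A controls set equal and below 0 under each other setting. In the other scalings, CRABP1 lay between -0.97 and -0.89.

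**Figure D5:**
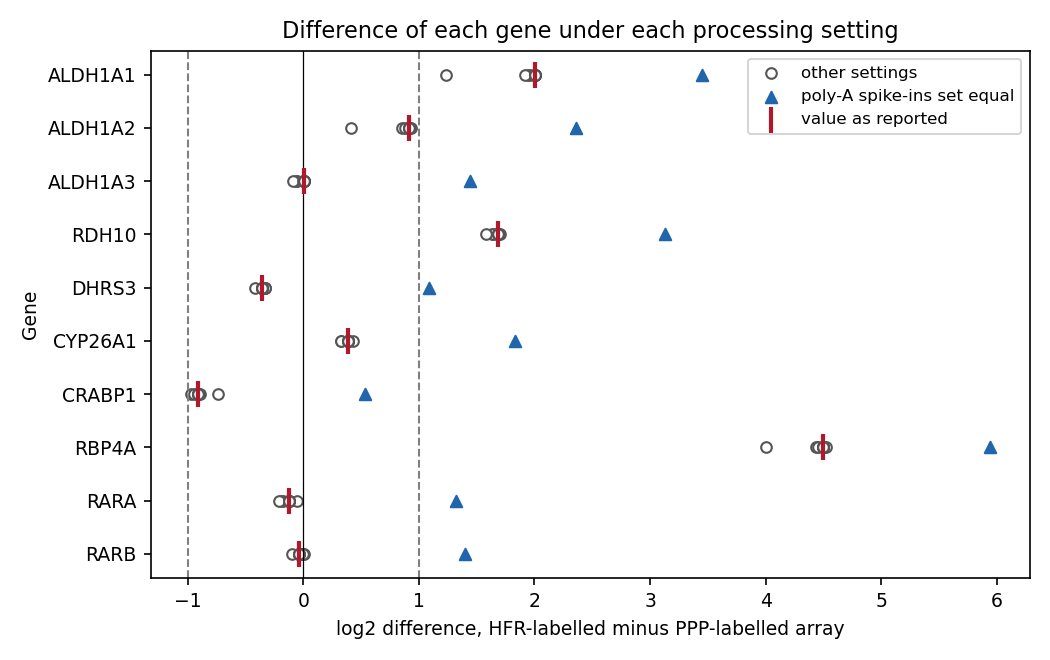
log2 difference (HFR-labelled minus PPP-labelled array) of each of the 10 members as reported (red bar), with the poly-A control RNAs set equal (blue triangle) and under each other setting (open circles). Dashed lines mark 2-fold. The triangles lie to the right for every gene, and the open circles of RBP4A, RDH10 and ALDH1A1 stay past 2-fold. Level filters and the equal value table cannot move a circle from the reported value.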

How the data were processed

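Together with 4 arrays of another study, the 2 arrays of the series were scaled by the authors to a baseline array through an invariant probe set (6 arrays in all, per the series' design text). The authors deposited model-based expression indices, intensities on a linear scale from perfect match probes. The submitters' processing notes name GCOS 1.3. Per the file headers, the authors deposited a detection call and a standard error for each index, the latter used here as a score of spread among probes. The 12 columns of the other study's arrays were not used. Total RNA (45 ng) was amplified in repeated rounds per the labels' protocols, and precision is limited by the number of arrays.

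The 153 control probe sets were left out. Of the rest, 27168 had 1 symbol, 177 several and 11037 none listed; symbols were updated through gene IDs with RefSeq's GRCg7b table (26853 matched). log2 differences are HFR minus PPP, with errors propagated from both arrays (Python 3.11.15, pandas 2.3.3). Folds against a reading with no present call are lower bounds as regards that reading. They are taken over it or, if higher, over the smallest present value (6.5 MBEI in HFR, 4.8 in PPP), and leave out the error of the brighter reading. A value of 0 was set to 0.1. The code was tested on simulated data. The members, lists and naming rule were chosen with earlier results of these data known. All members were named. From each other retinoid list the text names genes at 2-fold and then those of largest difference, up to 4, and from marker lists up to 4 at 2-fold. The extraembryonic markers absent on both arrays, and HNF4A, FGG, ALB, APOA5 and FGA, are named outside that rule. So are the streak marker CDX4 and the heart markers NKX2-5, SMYD1 and TBX5. The alternatives tried were poly-A controls set equal, quantile normalization, centring on the median, removal of a loess trend (span 0.3), a pseudocount of 35.4 MBEI, other level filters (none, 178.6 MBEI, present on both), other probe set choices, a difference over 2 errors, thresholds of 1.5-fold and 4-fold, and the value table.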

Additional observations from a re-analysis of the deposited data

How the results depend on the processing

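The count of 3 members at 2-fold or more on the HFR-labelled array stayed within 2 to 4 under all settings tried except the poly-A controls set equal, where it was 7. The count of 0 on the PPP-labelled array became 1 at 1.5-fold and stayed at 0 under the others. Over all passing genes, the counts of 285 (HFR-labelled) and 314 (PPP-labelled) became 5876 and 15 with the poly-A controls set equal, where 7064 genes passed. They were 698 and 963 at 1.5-fold and 73 and 44 at 4-fold. With the pseudocount added, the count on the PPP-labelled array was 189. The median log2 difference of the passing members (0.65) was 2.09 with the poly-A controls set equal, 0.20 without the level filter and 0.40 with the median over probe sets. It was 0.39 with the stricter filter, with presence on both arrays and with a relative error under 30%, which each leave out ALDH1A1 and so 7 members. With suffixes s, x and a left out, ALDH1A3 and RARA have no value. The series' value table held equal values for all 38535 probe sets on each array and so gave the same results. Signal over background limits RARA, ALDH1A3, the dimmer reading of ALDH1A1 and the retinoid X receptors. No paired analysis was possible because each tissue has 1 array.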

Other observations

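The genes next to the members in the RefSeq gene order of assembly GRCg7b were looked up after the members' values were seen, taking on each side the nearest gene past the level filter. RBP4A lies 6 places from CYP26A1 and 7 from CYP26C1 in that order, with a single passing gene, CEP55, between RBP4A and CYP26A1. RBP4A had a log2 difference of 4.50, while CEP55 had -0.21 (115.7 ± 5.7 and 133.7 ± 6.1 MBEI), CYP26A1 0.39, and LGI1 on the far side of RBP4A 0.12 (98.4 ± 7.8 and 90.8 ± 3.7). RDH10 (1.69) lies beside the ribosomal protein gene RPL7 (-0.05, 6616.0 ± 195.1 and 6861.2 ± 119.7) and near STAU2 (0.17). ALDH1A1 (2.01) lies between ZFAND5 (-0.54, 1617.6 ± 59.0 and 2343.9 ± 38.4) and ANXA1 (0.21). None of these 6 neighbours reached 2-fold. Of the members under 2-fold, DHRS3 (-0.36) lies between PRDM2 (0.13, 480.3 ± 9.9 and 438.0 ± 6.2) and AADACL3C. The latter was 4.76-fold higher in the PPP-labelled sample (66.2 ± 6.1 and 315.2 ± 2.7). All other neighbours looked up stayed under 2-fold, the largest being EXOC6 near CYP26A1 (-0.82).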
